A study of Mus musculus with 8 samples.

Results

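The unfolded protein and ATF4 stress genes are 35 listed genes, matched by symbol among the 55450 gene identifiers counted. All 35 passed the filter on low counts, as did 14641 genes in all. They comprised 8 regulators and ATF4 targets and 7 enzymes of serine, one-carbon and proline synthesis. The others were 4 genes grouped as sensors, 11 chaperones and folding enzymes, and 5 genes of protein degradation or secreted stress factors. The sensor group holds Eif2ak3, Ern1, Atf6 and Xbp1, of which Xbp1 encodes a transcription factor and not a sensor.

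Polyadenylated RNA was sequenced from the PyMT-1099 line, mouse breast cancer cells from a tumour driven by the polyoma virus middle T oncogene. The 4 groups of 2 libraries were AGPS KO cells given TGF-β, AGPS KO cells left untreated, parental (WT) cells given TGF-β and parental cells left untreated. TGF-β was given at 2 ng/ml for 10 days, and all groups grew in the same high glucose medium with serum. The labels give no day for the untreated groups, so time in culture may differ along with TGF-β. Agps encodes a peroxisomal enzyme of ether lipid synthesis, and the labels name a single AGPS KO line without saying whether it is 1 clone. The labels do not say that the libraries of 1 group were grown as separate cultures. P-values therefore measure the spread of these libraries alone, which may be technical.

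The endoplasmic reticulum (ER) folds secreted and membrane proteins. When unfolded proteins build up, the sensors PERK, IRE1 and ATF6 start the unfolded protein response, in which ATF6 and XBP1 raise chaperones and degradation factors. PERK, and GCN2 when amino acids run short, phosphorylate eIF2α, which slows translation but favours that of the factor ATF4, and ATF4 then raises genes of amino acid synthesis and transport. Since ATF4, ATF6 and IRE1 act largely through translation, cleavage and splicing, gene counts do not measure their activity.

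Promoter sequences are shown first, since several members hold known stress elements close to their starts. RefSeq gave a window, from 250 bases before to 50 bases after the start, for 32 of the 35 members. Both strands were searched. The ER stress element (CCAAT, 9 bases of any kind, CCACG), known to bind ATF6 with the factor NF-Y, was found in 7 member windows and in 39 of all 32851 windows (0.119%). By role, it was in 6 of 10 chaperone windows (Hspa5, Hsp90b1, Calr, Canx, Pdia6 and Dnajc3) and in 1 of 4 windows of degradation and secreted factors (Creld2). No window of the other roles held it. The next lines give stretches of the GRCm38.p6 gene strand, 5′ to 3′, with both ends of each match in capitals, read as CGTGG and ATTGG where the match lies on the other strand.
Hspa5, chr2:34772000-34772068, plus strand: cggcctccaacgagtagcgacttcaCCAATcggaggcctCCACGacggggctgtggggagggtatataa
Hsp90b1, chr10:86705523-86705666, minus strand: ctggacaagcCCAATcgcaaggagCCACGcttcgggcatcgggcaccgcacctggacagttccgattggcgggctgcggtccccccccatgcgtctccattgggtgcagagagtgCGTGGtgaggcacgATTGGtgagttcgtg
Calr, chr8:84847050-84847118, minus strand: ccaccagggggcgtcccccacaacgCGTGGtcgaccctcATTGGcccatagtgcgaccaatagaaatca
Canx, chr11:50325775-50325843, minus strand: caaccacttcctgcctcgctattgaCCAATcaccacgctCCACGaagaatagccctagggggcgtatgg
Pdia6, chr12:17266466-17266534, plus strand: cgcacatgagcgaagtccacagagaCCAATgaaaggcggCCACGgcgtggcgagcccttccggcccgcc
Dnajc3, chr14:118937802-118937870, plus strand: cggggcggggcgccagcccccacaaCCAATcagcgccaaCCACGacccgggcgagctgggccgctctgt
Creld2, chr15:88819495-88819563, plus strand: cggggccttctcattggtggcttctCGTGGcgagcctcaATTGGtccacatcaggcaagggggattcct

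The C/EBP-ATF composite site (TGATGNAA), known as a site of ATF4 with C/EBP factors, was found in the windows of Asns, Herpud1, Pycr1, Trib3 and Vldlr. These were 3 of 8 windows of regulators and ATF4 targets, 1 of 7 of the serine, one-carbon and proline enzymes and 1 of 4 of the degradation and secreted factors. It was also in 1304 of all 32851 windows (3.97%). The ER stress element II (ATTGG, 1 base of any kind, CCACG) was found in 12 windows (0.0365%), of which Herpud1 was the single member. The unfolded protein response element (TGACGTGG) was in 222 windows (0.676%) and in 0 member windows. Matches of different motifs did not overlap in any member, and a match describes letters and shows no binding. In the next lines capitals mark the fixed letters of each match. In Herpud1 the composite site lies on the other strand, as TT and CATCA, and the ER stress element II follows it.
Herpud1, chr8:94386302-94386402, plus strand: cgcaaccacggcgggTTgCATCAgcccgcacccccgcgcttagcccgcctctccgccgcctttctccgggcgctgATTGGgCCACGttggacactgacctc
Asns, chr6:7693210-7693252, minus strand: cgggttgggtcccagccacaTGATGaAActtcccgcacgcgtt
Pycr1, chr11:120643819-120643876, minus strand: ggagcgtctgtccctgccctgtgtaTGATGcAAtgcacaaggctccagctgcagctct

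Library totals ran from 17007268 to 21311831 counts, and the members took 0.964% to 1.20% of a library. Agps averaged 39.8 ± 5.87 CPM (counts relative to library size after TMM scaling, SD, n = 2) in AGPS KO cells with TGF-β, against 265.5 ± 0.98 CPM in parental cells with TGF-β. Untreated, it averaged 31.1 ± 2.52 CPM in AGPS KO cells and 343.5 ± 19.4 CPM in parental cells. The epithelial keratins Krt8 and Krt18 were abundant in every library, and Cdh1 and Krt7 were detected in all 8. Cdh1, which encodes E-cadherin, averaged 52.3 ± 0.072 CPM with TGF-β against 302 ± 21.8 CPM untreated in AGPS KO cells, and 134 ± 8.65 CPM with TGF-β against 642 ± 84.4 CPM untreated in parental cells. Of the 4 epithelial markers tested, 1 was higher and 1 lower with TGF-β in AGPS KO cells, and 1 higher and 3 lower in parental cells. Among all genes 20.9% were higher and 20.6% lower with TGF-β in AGPS KO cells, and 21.3% and 21.2% in parental cells. Between the lines 2 of the 4 markers were lower in AGPS KO cells with TGF-β and 4 of the 4 untreated. Of all genes 11.1% and 8.94% were lower in these comparisons. Epcam, also a defining epithelial gene, had 0 counts in all 8 libraries, which leaves an expected count of up to 3 in each possible. Of 5 immune markers, Adgre1 and Cd3e were at 0, and the list summed to 6.68 to 12.4 CPM in treated libraries against 1.05 to 2.99 CPM in untreated ones, most of it Cd68. The endothelial, skeletal muscle and red cell lists each summed to at most 1.43 CPM. The part of other cells or of these epithelial differences in the results below was not tested.

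**Figure D1:**
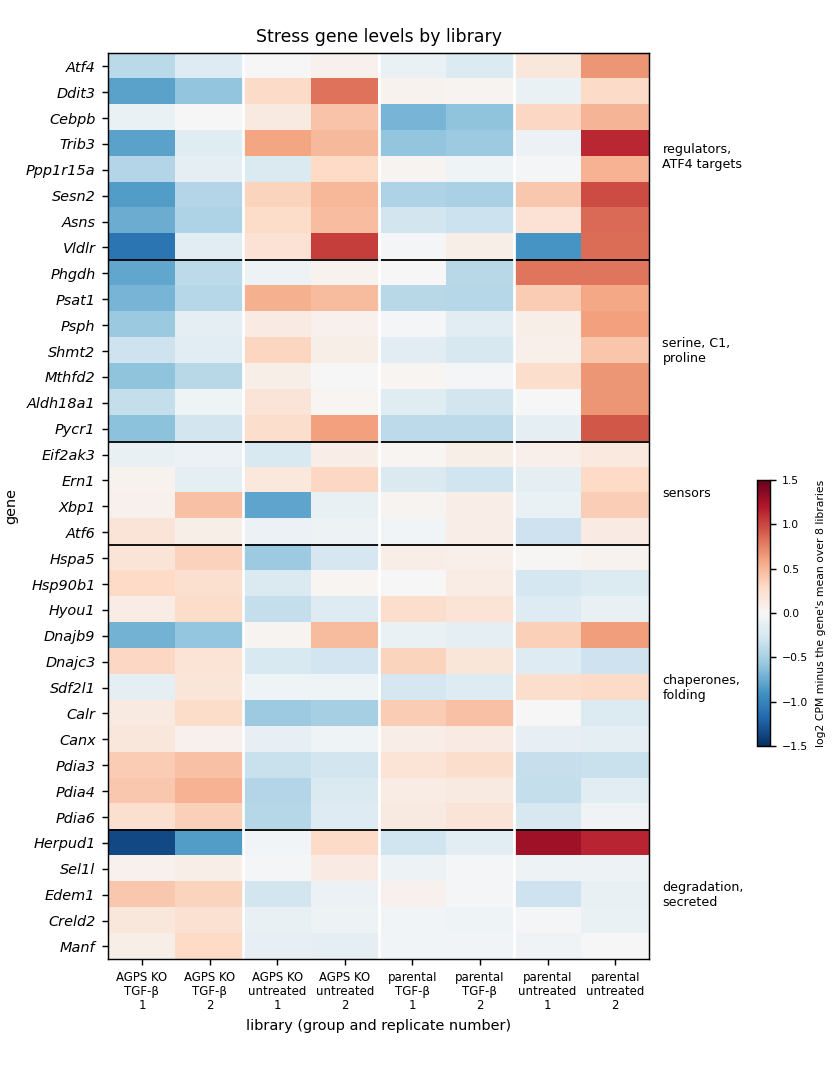
Heat map of the 35 members (rows, ordered by role) in the 8 libraries (columns), as log2 CPM minus the gene's mean over the 8 libraries, red higher and blue lower. Most ATF4 targets and amino acid enzymes are blue in the TGF-β libraries, most chaperones red, and untreated parental replicate 2 is the reddest column for the ATF4 targets.

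In parental cells most ATF4 targets and amino acid enzymes fell with TGF-β and most chaperones rose. Of the 35 members 8 were higher and 15 lower with an adjusted p under 0.05 in the edgeR quasi-likelihood test, against 21.3% of all 14641 genes higher and 21.2% lower (42.5% in either direction). The median log2 fold change was -0.17 over the members and 0.01 over all genes tested. The members and roles were chosen with earlier results of these data known, so counts by role, here and below, are not independent of them. By role, 5 of 8 regulators and ATF4 targets were lower and 0 higher, and 7 of 7 serine, one-carbon and proline enzymes were lower. In contrast 8 of 11 chaperones and folding enzymes were higher and 2 lower, while 0 of 4 genes of the sensor group were called. Libraries of both groups did not overlap for 10 members on the higher side and 16 on the lower side, where 36.8% and 35.3% of all genes did so. In bulk RNA, fewer cells of a kind and less RNA per cell cannot be told apart.

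In AGPS KO cells 12 members were higher with TGF-β and 12 lower, against 20.9% and 20.6% of all genes (41.4% in either direction). The median log2 fold change was -0.27 over the members and -0.00 over all genes. By role, 5 of 8 regulators and ATF4 targets and 5 of 7 serine, one-carbon and proline enzymes were lower, with 0 higher in either. Among the chaperones and folding enzymes 8 of 11 were higher and 1 lower, and of the degradation and secreted factors 3 of 5 were higher and 1 lower. Groups did not overlap for 14 members on the higher side and 17 on the lower side, against 34.5% and 34.3% of all genes.

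**Figure D2:**
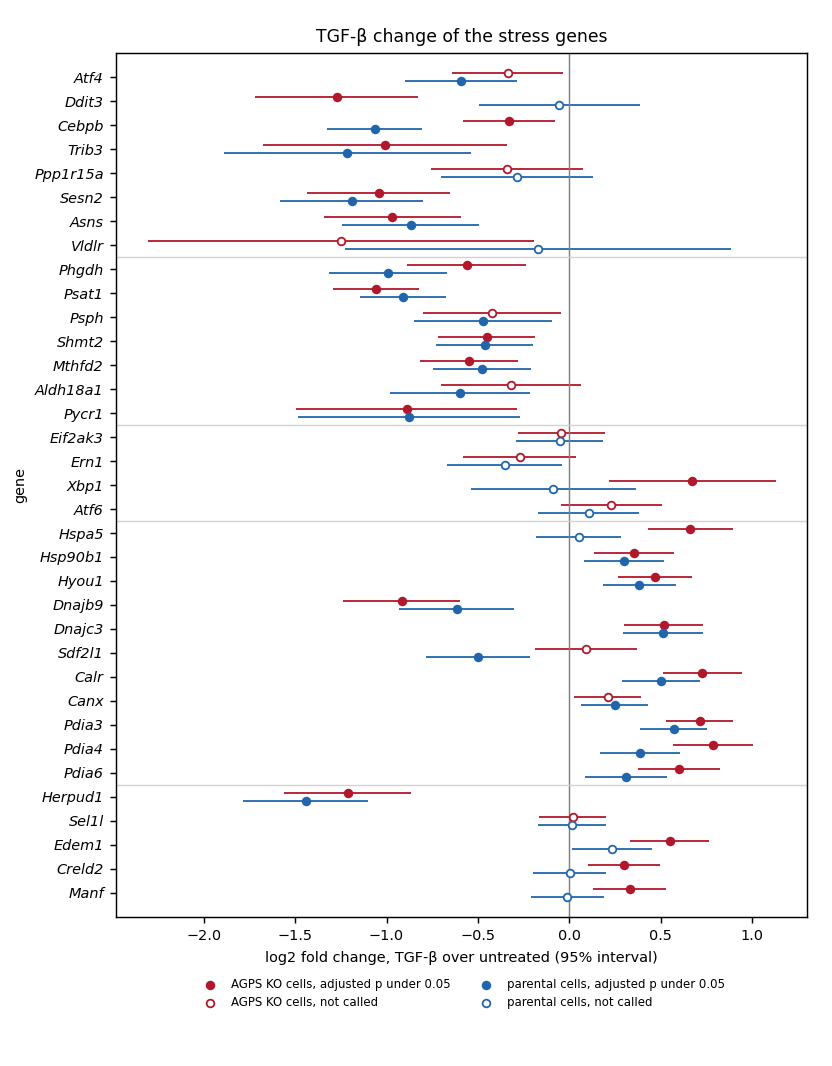
Log2 fold change of each member with TGF-β over untreated (points, with 95% intervals), in AGPS KO cells (red) and parental cells (blue); filled points had an adjusted p under 0.05. The upper block of regulators and enzymes lies left of 0 and most chaperones lie right of it, from Herpud1 at -1.44 to Pdia4 at 0.79.

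Among the regulators and ATF4 targets, Atf4 encodes the transcription factor named above. It stood at 452 and 523 CPM in AGPS KO cells with TGF-β, against 603 and 629 CPM in untreated AGPS KO cells. In parental cells it stood at 557 and 520.2 CPM with TGF-β, against 675 and 949 CPM untreated. The treated libraries were below the untreated ones in both lines, and the fall passed the test in parental cells (log2 fold change -0.59, standard error 0.14, adjusted p = 0.00498). In AGPS KO cells the value was -0.34 with an adjusted p of 0.0726. That value passed by edgeR with a replicate block (adjusted p = 0.0252) and with only the 4 libraries compared (0.026). The difference of 0.25 between the lines had an adjusted p of 0.647. Without untreated parental replicate 2 the parental value of Atf4 was -0.33 and still passed.

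Sesn2 encodes sestrin 2, an inhibitor of mTORC1 signalling. It had 25.2 and 33.2 CPM with TGF-β against 56.9 and 63.4 CPM untreated in AGPS KO cells. In parental cells it had 32.8 and 32.1 CPM with TGF-β against 59.4 and 88.7 CPM untreated. Every treated library was below every untreated one. The log2 fold change was -1.04 (standard error 0.18, adjusted p = 0.000611) in AGPS KO cells and -1.19 (0.18, 0.00024) in parental cells.

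Asns, whose product makes asparagine and whose promoter site is printed above, had 233 and 281 CPM with TGF-β against 471 and 537 CPM untreated in AGPS KO cells. It had 320.3 and 312 CPM with TGF-β against 452 and 701 CPM untreated in parental cells. Again no treated library reached an untreated one, with log2 fold changes of -0.97 (standard error 0.17, adjusted p = 0.000732) in AGPS KO cells and -0.87 (0.17, 0.00159) in parental cells. The parental value of Asns was -0.52 without untreated parental replicate 2 and still passed.

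Trib3, a pseudokinase that ATF4 induces and that binds it in turn, had 31.2 and 48.1 CPM with TGF-β against 82.6 and 76.8 CPM untreated in AGPS KO cells. Its levels were 36.2 and 37.5 CPM with TGF-β against 51.4 and 120.0 CPM untreated in parental cells, so the untreated parental libraries lay far apart. The fall was -1.01 (standard error 0.30, adjusted p = 0.0197) in AGPS KO cells and -1.22 (0.31, 0.00774) in parental cells. Without untreated parental replicate 2 the parental value was -0.49 with an adjusted p of 0.0654. In AGPS KO cells the call was lost without AGPS KO TGF-β replicate 1 (-0.73, adjusted p = 0.195) and with DESeq2 (adjusted p = 0.0774).

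Ddit3 (ENSMUSG00000025408, GRCm38 chr10:127290774-127296288, plus strand) encodes CHOP, a factor of the late stress response. It had 5.97 and 6.93 CPM with TGF-β against 12.7 and 18.4 CPM untreated in AGPS KO cells. In parental cells it had 10.9 and 10.8 CPM with TGF-β against 9.75 and 12.8 CPM untreated. The groups separated in AGPS KO cells and overlapped in parental cells (log2 fold change -1.27, standard error 0.20, adjusted p = 0.000361 in AGPS KO cells, against -0.05, 0.20 and 0.858 in parental cells). The difference of both changes was -1.22 (standard error 0.28, 95% interval -1.84 to -0.59), with an adjusted p of 0.0509 by edgeR and of 0.0115 by DESeq2. A second identifier carries the same symbol, and the one with more counts was used. It shares 6.13% of its exon length with genes on its own strand and 4.73% with genes on the other.

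Cebpb (ENSMUSG00000056501, GRCm38 chr2:167688915-167690418, plus strand), a partner of ATF4 at composite sites, had 71.0 and 76.6 CPM with TGF-β against 83.4 and 102 CPM untreated in AGPS KO cells. It had 47.1 and 49.9 CPM with TGF-β against 94.3 and 108 CPM untreated in parental cells. It fell in both lines, to log2 fold changes of -0.33 (standard error 0.11, adjusted p = 0.0382) in AGPS KO cells and -1.07 (0.12, 2.08e-05) in parental cells. The call in AGPS KO cells ended in 6 of 14 alternatives, between -0.47 and -0.18 over all of them. Of the 35 members it was the one whose change differed between the lines past the threshold, by 0.74 (standard error 0.16, adjusted p = 0.043). Of its exon length 20.7% lies under Tmem189 on the other strand. Leaving out 1 library ended the call for the difference in 6 of 8 cases. Ppp1r15a, an eIF2α phosphatase subunit, was not called in any comparison of the fit reported. With no count filter its fall with TGF-β passed by edgeR in AGPS KO cells (-0.34, adjusted p = 0.0114) and parental cells (-0.31, 0.0273). Vldlr, a lipoprotein receptor, was not called either, at -1.25 with TGF-β in AGPS KO cells (adjusted p = 0.0571), but that value passed in 7 of 14 alternatives, DESeq2 among them (adjusted p = 0.0305). Its 2 untreated parental libraries differed by 1.66 on the log2 scale, and without replicate 2 Vldlr was higher in untreated AGPS KO than parental cells (1.56, adjusted p = 0.0339).

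Among the serine, one-carbon and proline enzymes Psat1, an aminotransferase of serine synthesis, fell in both lines. It had 397 and 481 CPM with TGF-β against 934 and 894 CPM untreated in AGPS KO cells. In parental cells it had 484 and 479 CPM with TGF-β against 842 and 968 CPM untreated. The treated libraries of both lines lay at about the same level, well below the untreated ones. The log2 fold change was -1.06 (standard error 0.11, adjusted p = 1.01e-05) in AGPS KO cells and -0.91 (0.11, 3.59e-05) in parental cells.

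Phgdh, the first enzyme of serine synthesis from glycolysis, had 40.6 and 53.2 CPM with TGF-β against 66.1 and 72.3 CPM untreated in AGPS KO cells. It had 70.0 and 52.3 CPM with TGF-β against 122 and 122 CPM untreated in parental cells. The treated libraries were lower in each line, at -0.56 (standard error 0.15, adjusted p = 0.0101) in AGPS KO cells and -0.99 (0.15, 0.00023) in parental cells. The call in AGPS KO cells ended without AGPS KO TGF-β replicate 1 (-0.38, adjusted p = 0.119). Its values are uncertain, since 47.8% of its 50-base exon stretches also occur in other annotated genes.

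Pycr1, an enzyme of proline synthesis, had 15.2 and 19.1 CPM with TGF-β against 27.8 and 35.6 CPM untreated in AGPS KO cells. It had 17.7 and 17.6 CPM with TGF-β against 20.9 and 44.2 CPM untreated in parental cells, where the untreated libraries again lay apart. Its log2 fold changes were -0.89 (standard error 0.27, adjusted p = 0.0218) in AGPS KO cells and -0.88 (0.28, 0.0241) in parental cells. Without untreated parental replicate 2 the parental value was -0.25 with an adjusted p of 0.345. With DESeq2 the calls of Pycr1 ended in both lines (adjusted p = 0.0845 in AGPS KO cells and 0.083 in parental cells). The AGPS KO call also ended without TGF-β replicate 1 (adjusted p = 0.175) or 2 (0.0541) or untreated replicate 2 (0.0968), and in parental cells without either TGF-β library (0.0938 and 0.0942). Shmt2 and Mthfd2, enzymes of mitochondrial one-carbon metabolism, were lower in both lines, Mthfd2 at -0.55 in AGPS KO cells and -0.48 in parental cells. Psph, of serine synthesis, and Aldh18a1, of proline synthesis, passed in parental cells at -0.47 and -0.60 and had -0.42 (adjusted p = 0.0707) and -0.32 (adjusted p = 0.17) in AGPS KO cells.

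Untreated parental replicate 2 stood above replicate 1 for most of the ATF4 targets and enzymes. Without it, 9 rather than 15 members passed as lower in treated parental cells, and 2 rather than 7 of the serine, one-carbon and proline enzymes, and the calls of Trib3, Pycr1, Aldh18a1, Psph, Mthfd2 and Shmt2 ended, at values between -0.49 for Trib3 and -0.19 for Psph. The count of enzymes was also 2 without parental TGF-β replicate 2 and 4 without parental TGF-β replicate 1. In AGPS KO cells, leaving out TGF-β replicate 1 left 6 rather than 12 members lower, with 1 of the enzymes and 3 of the regulators. Each of these settings kept the sign of the changes.

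In the sensor group of 4 genes 1 was called, in AGPS KO cells, and it was Xbp1, which is not itself a sensor. Xbp1 encodes the factor that IRE1 activates by splicing its mRNA, and gene counts do not separate its spliced form. It had 94.3 and 122 CPM with TGF-β against 52.3 and 83.4 CPM untreated in AGPS KO cells. It had 92.5 and 96.4 CPM with TGF-β against 84.1 and 117 CPM untreated in parental cells. The groups separated in AGPS KO cells (log2 fold change 0.67, standard error 0.21, adjusted p = 0.0217) and overlapped in parental cells (-0.09, adjusted p = 0.773). The difference between the lines, 0.76, had an adjusted p of 0.262. The call in AGPS KO cells ended with DESeq2 (adjusted p = 0.0748), without AGPS KO TGF-β replicate 2 (0.48, adjusted p = 0.179) and without untreated AGPS KO replicate 1 (0.37, adjusted p = 0.137). Eif2ak3, which encodes PERK, changed by -0.04 in AGPS KO cells (95% interval -0.28 to 0.20) and by -0.05 in parental cells (-0.29 to 0.19). Ern1, which encodes IRE1, and Atf6 were, like Eif2ak3, not called in any comparison of the fit reported. In parental cells Ern1 had -0.35 with TGF-β (adjusted p = 0.0679), with groups that did not overlap. That fall passed by edgeR with a replicate block (adjusted p = 0.0471).

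Of the 11 chaperones and folding enzymes 8 were higher in each line. Pdia3, an oxidoreductase of glycoprotein folding, had 1628 and 1689 CPM with TGF-β against 988 and 1034 CPM untreated in AGPS KO cells. It had 1438 and 1502 CPM with TGF-β against 985 and 993 CPM untreated in parental cells. Every treated library exceeded every untreated one, at 0.71 (standard error 0.08, adjusted p = 3.08e-05) in AGPS KO cells and 0.57 (0.08, 0.000187) in parental cells on the log2 scale.

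Calr, whose product calreticulin holds glycoproteins while they fold, had 1241 and 1363 CPM with TGF-β against 772 and 800.5 CPM untreated in AGPS KO cells. It had 1466 and 1527 CPM with TGF-β against 1134 and 977 CPM untreated in parental cells. It rose by 0.73 (standard error 0.10, adjusted p = 9.54e-05) in AGPS KO cells and 0.50 (0.10, 0.00145) in parental cells, and the untreated AGPS KO libraries were the lowest of all.

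Pdia4, another disulfide isomerase, had 392 and 425 CPM with TGF-β against 219 and 254 CPM untreated in AGPS KO cells. It had 322 and 327 CPM with TGF-β against 231 and 265 CPM untreated in parental cells. The treated libraries were higher in each line, by 0.79 (standard error 0.10, adjusted p = 6.35e-05) in AGPS KO cells and 0.39 (0.10, 0.00886) in parental cells. The difference of 0.40 between these changes had an adjusted p of 0.208.

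Hspa5 (ENSMUSG00000026864, GRCm38 chr2:34771970-34777547, plus strand) encodes BiP, the main ER chaperone of the Hsp70 family and the gene most often read as a sign of the unfolded protein response. It had 1754 and 1938 CPM with TGF-β against 1051 and 1282 CPM untreated in AGPS KO cells. It had 1640.2 and 1617 CPM with TGF-β against 1552 and 1593 CPM untreated in parental cells. It rose in AGPS KO cells (0.66, standard error 0.11, adjusted p = 0.000375), while the parental value was 0.05 (0.11, 0.737; 95% interval -0.18 to 0.28). The difference of 0.61 (95% interval 0.28 to 0.94) had an adjusted p of 0.0616 by edgeR and of 0.00476 by DESeq2.

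Of the other chaperones, Hyou1, Dnajc3, Pdia6 and Hsp90b1 were higher in both lines, between 0.30 for Hsp90b1 in parental cells and 0.60 for Pdia6 in AGPS KO cells. The AGPS KO call of Hsp90b1 ended without untreated replicate 1 (0.23, adjusted p = 0.117) or TGF-β replicate 1 (adjusted p = 0.0719). Canx, the membrane partner of calreticulin, rose in parental cells by 0.25 and had 0.21 in AGPS KO cells (adjusted p = 0.0661). In parental cells the higher chaperones numbered 4 rather than 8 without either parental TGF-β library or without untreated parental replicate 1.

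Of the 7 members with an ER stress element 6 were higher and 0 lower with TGF-β in AGPS KO cells, and 5 higher and 0 lower in parental cells, against 20.9% and 21.3% of all genes higher. The parental count was 2 without either TGF-β library or without untreated replicate 1, and 3 without untreated replicate 2. The AGPS KO count was 4 without untreated replicate 1. Pdia3 and Pdia4, whose windows hold no such element, also rose in both lines. Among the 4 chaperones with a window and no element, 2 were higher in each line. In AGPS KO cells 1 of those 4 was lower, and in parental cells 2 were. Of the 5 members with a C/EBP-ATF composite site 4 were lower and 0 higher in each line, against 20.6% of all genes lower in AGPS KO cells and 21.2% in parental cells. That count was 2 in AGPS KO cells without TGF-β replicate 1, and 2 in parental cells without untreated replicate 2. Psat1, Phgdh, Sesn2 and Cebpb, whose windows hold no match, also fell in both lines. Without a match, 4 of 6 serine, one-carbon and proline enzymes were lower in AGPS KO cells and 6 of 6 in parental cells. So were 3 of 5 regulators and ATF4 targets in each line. The ER stress element was mostly in chaperones, so these counts do not separate it from that role. The part of these elements in the changes was not tested.

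Dnajb9, a BiP cochaperone that restrains IRE1, went the other way from most chaperones. It had 32.3 and 35.3 CPM with TGF-β against 54.3 and 73.4 CPM untreated in AGPS KO cells. It had 49.3 and 47.7 CPM with TGF-β against 67.4 and 81.5 CPM untreated in parental cells. Its fall was -0.92 (standard error 0.15, adjusted p = 0.000346) in AGPS KO cells and -0.62 (0.14, 0.00469) in parental cells. Sdf2l1, a partner of ER Hsp40 proteins, fell by 0.50 in parental cells (adjusted p = 0.00856) and had 0.09 in AGPS KO cells (adjusted p = 0.617).

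Herpud1 (ENSMUSG00000031770, GRCm38 chr8:94386438-94395377, plus strand), whose product assembles the ER degradation machinery, fell most of all 35 members in parental cells and stood lowest in treated AGPS KO cells. It had 34.7 and 49.8 CPM with TGF-β against 86.6 and 109 CPM untreated in AGPS KO cells. It had 72.1 and 79.3 CPM with TGF-β against 215 and 197 CPM untreated in parental cells. No pair of groups overlapped, and untreated AGPS KO cells lay just above treated parental cells. The log2 fold change with TGF-β was -1.21 (standard error 0.16, adjusted p = 7.89e-05) in AGPS KO cells and -1.44 (0.16, 1.75e-05) in parental cells. These calls held in all 14 alternatives of either comparison.

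Edem1, which directs misfolded glycoproteins to degradation, had 163 and 155 CPM with TGF-β against 102 and 115 CPM untreated in AGPS KO cells. It had 128 and 122 CPM with TGF-β against 98.9 and 114 CPM untreated in parental cells. The treated libraries were above the untreated ones in each line, but the rise passed in AGPS KO cells (0.55, standard error 0.10, adjusted p = 0.000877) and had an adjusted p of 0.0821 in parental cells (0.23). The difference of 0.32 between the lines had an adjusted p of 0.345.

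Manf, a secreted factor released under ER stress, had 117 and 136 CPM with TGF-β against 101 and 100.2 CPM untreated in AGPS KO cells. It had 107 and 107 CPM with TGF-β against 106 and 110.4 CPM untreated in parental cells, with groups that overlap. It rose by 0.33 (standard error 0.09, adjusted p = 0.0124) in AGPS KO cells and had -0.01 in parental cells (adjusted p = 0.942), a difference of 0.34 with an adjusted p of 0.25. Creld2 rose by 0.30 in AGPS KO cells (adjusted p = 0.0199) and had 0.00 in parental cells, a difference of 0.29 with an adjusted p of 0.329. Its AGPS KO call ended with only the 4 libraries compared (adjusted p = 0.0514) and with no count filter (0.0652). Without AGPS KO TGF-β replicate 2 or untreated AGPS KO replicate 2, 1 rather than 3 of this role were called higher in AGPS KO cells. Sel1l, a scaffold of ER degradation, had 0.02 in both lines.

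**Figure D3:**
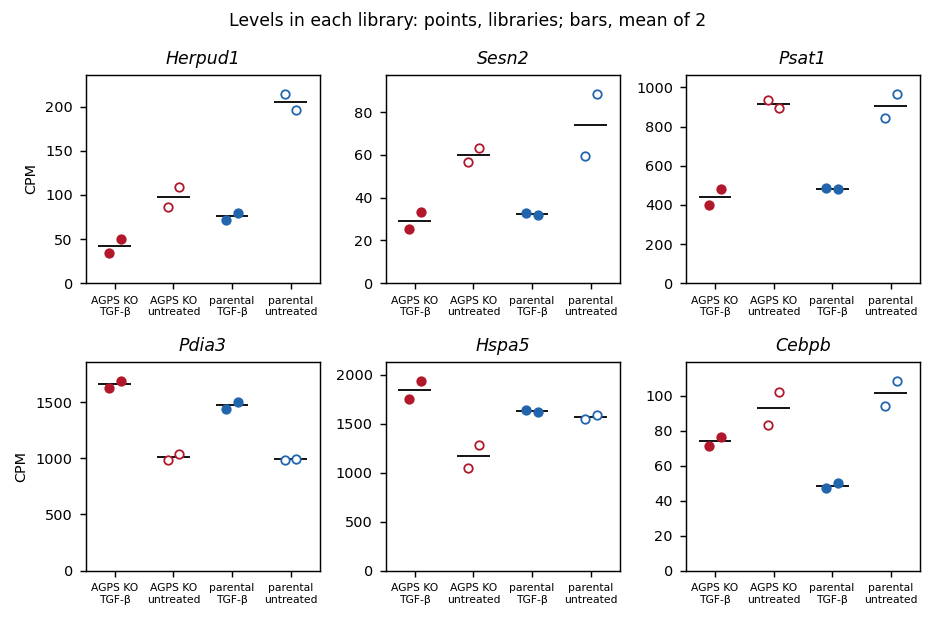
CPM of 6 members in each library (points) with the mean of 2 (bars): AGPS KO cells in red, parental cells in blue, filled with TGF-β and open untreated. Herpud1, Sesn2 and Psat1 are lower with TGF-β in both lines and Pdia3 higher, while Hspa5 is lowest in untreated AGPS KO cells and Cebpb lowest in treated parental cells.

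Set against the parental line, AGPS KO cells differed at a share of members close to that of all genes. Untreated, 0 members were higher and 5 lower (Herpud1, Phgdh, Mthfd2, Hspa5 and Calr), against 4.72% and 8.94% of all genes. The 5 called members are 14.3% of the 35, against 13.7% of all genes in either direction. The median log2 fold change was -0.12 over the members and 0.00 over all genes. DESeq2 also called 0 members higher and the fit with a replicate block 1, and 9 members had an unadjusted p under 0.05 in either direction. Groups did not overlap for 2 members on the higher side and 10 on the lower side, against 24.4% and 26.3% of all genes.

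On the log2 scale Herpud1 stood at -1.07 (standard error 0.15, adjusted p = 0.000834) and Phgdh at -0.81 (0.15, 0.00347). Hspa5 (adjusted p = 0.0191), Calr (adjusted p = 0.0135) and Mthfd2 (adjusted p = 0.0362) were each at -0.43. Except for Herpud1 and Phgdh, these calls ended in the fit of only the 4 libraries compared, where the adjusted p was 0.0573 for Calr, 0.0753 for Hspa5 and 0.129 for Mthfd2. The call of Mthfd2 ended in 9 of 14 alternatives, with -0.22 (adjusted p = 0.261) without untreated parental replicate 2. Without untreated AGPS KO replicate 1 there were 2 lower members, and without untreated parental replicate 1 there were 10 and without replicate 2 there were 3. Psat1 and Pdia3 had 0.01 (95% interval -0.22 to 0.25) and 0.03 (-0.15 to 0.21). Atf4 at -0.40 (adjusted p = 0.0852) and Xbp1 at -0.56 (0.105) were not called by edgeR, but their groups did not overlap. DESeq2 called Atf4 lower (adjusted p = 0.0385). The edgeR fit with a replicate block called Atf4 (adjusted p = 0.0311) and Xbp1 (0.00408) lower.

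Of the 5 called members 3 lie on chromosome 3 or 8, where many genes were lower in AGPS KO cells. The median over all tested genes of a chromosome, untreated, was -0.46 for the 810 genes of chromosome 8 and -0.28 for the 764 of chromosome 3. It was -0.17 for the 573 of chromosome 15 and between -0.05 and 0.07 for each other chromosome. Genes within 5 Mb of Herpud1 on chromosome 8 had a median of -0.61 (60 genes). Around Calr on the same chromosome the median was -0.39 (93 genes), and around Phgdh on chromosome 3 it was -0.31 (122 genes). Untreated, Calr differed about as its neighbours did, while Herpud1 and Phgdh lay below theirs. Around Hspa5 and Mthfd2 the medians were both 0.03. Around Atf4 on chromosome 15, not called, the median was -0.25 (192 genes). Copy number was not measured, and the part of position in these differences was not tested.

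With TGF-β on both sides, 3 members were higher in AGPS KO cells and 4 lower, against 6.82% and 11.1% of all genes. The 7 called members are 20% of the 35, against 17.9% of all genes in either direction. The medians were -0.01 over the members and 0.01 over all genes. Cebpb was higher by 0.61 (standard error 0.12, adjusted p = 0.0044), Pdia4 by 0.33 (0.10, 0.0386) and Edem1 by 0.34 (0.10, 0.0334). On the lower side were Herpud1 at -0.84 (standard error 0.16, adjusted p = 0.00383), Ddit3 at -0.75 (0.21, 0.0292), Dnajb9 at -0.52 (0.15, 0.0301) and Mthfd2 at -0.50 (0.12, 0.0151). For Herpud1 the genes within 5 Mb had a median of -0.60. Leaving out any 1 of the 4 libraries compared ended the calls of Ddit3, Dnajb9, Mthfd2, Pdia4 and Edem1. It left 0 or 1 member higher and 1 or 2 lower, with Herpud1 called in every case. Groups did not overlap for 12 members on the higher side and 9 on the lower side, against 30.3% and 31% of all genes.

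**Figure D4:**
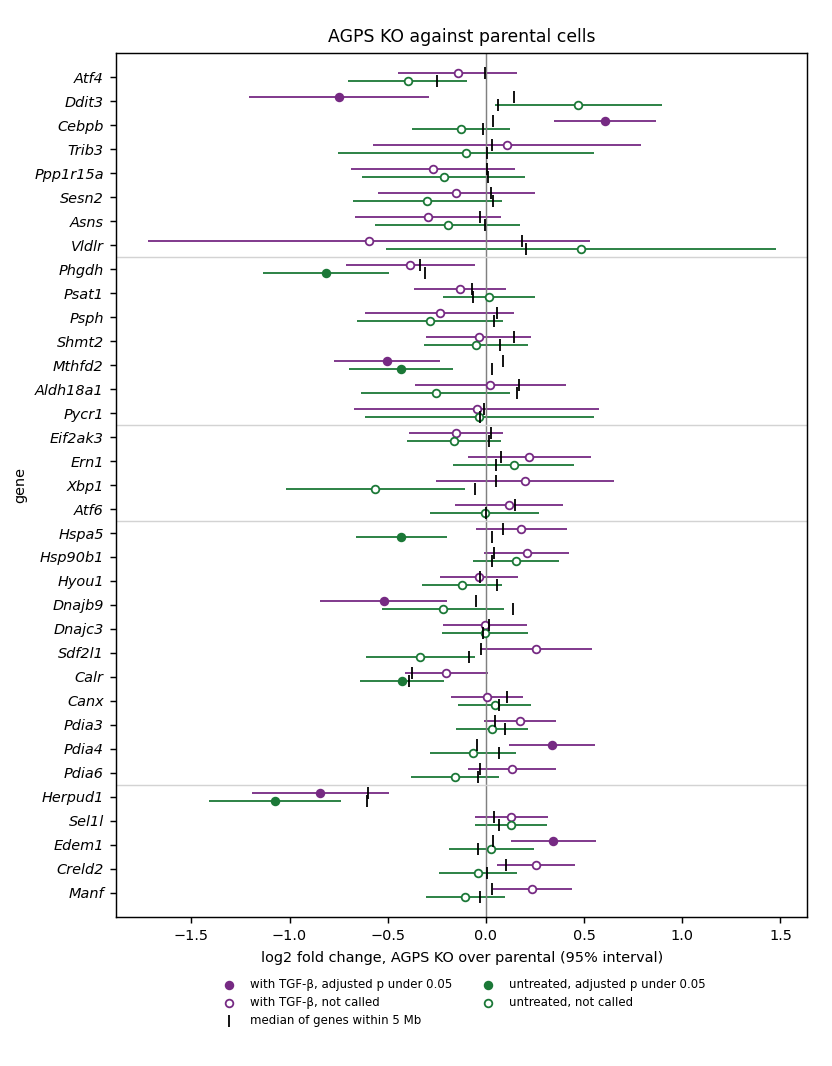
Log2 fold change of each member in AGPS KO over parental cells (points, with 95% intervals), with TGF-β (purple) and untreated (green), and the median of the genes within 5 Mb (black ticks). Filled points had an adjusted p under 0.05; Herpud1 lies left of its ticks at -0.84 and -1.07, while Calr lies right of its tick with TGF-β (-0.20 against -0.38) and near it untreated (-0.43 against -0.39).

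Over all members the TGF-β change differed between the lines for 1, Cebpb, against 1.25% of all genes higher and 1.15% lower (2.4% in either direction). The difference is the log2 change in AGPS KO cells minus that in parental cells. It was above 0 for 26 members and below 0 for 9, with a median of 0.12, against 0.01 over all genes. Its size ran from -1.22 for Ddit3 to 0.76 for Xbp1, and 9 members had an unadjusted p under 0.05. Both changes enter this difference, so it is not independent of the comparisons above.

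Levels between genes were compared per kb of exon. In untreated parental cells Hspa5 (372 ± 6.87 CPM per kb, SD, n = 2), Calr (367 ± 38.4), Atf4 (345 ± 82.2) and Pdia3 (315 ± 1.69) led the members. Hspa5, Calr and Atf4 did not differ beyond their spread. In AGPS KO cells with TGF-β the order began with Pdia3 (528 ± 13.7 CPM per kb), Calr (452 ± 30.2) and Hspa5 (437 ± 30.8), and Calr and Hspa5 lay within their spread of each other.

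Other genes of these pathways were counted in 4 wider lists, also chosen with earlier results of these data known. Of 21 other ATF4 targets and regulators tested, 13 were lower and 5 higher with TGF-β in AGPS KO cells. In parental cells 14 were lower and 0 higher. Higher in AGPS KO cells were Ddit4 (log2 fold change 1.36), Nupr1 (0.95), Vegfa (0.54), Map1lc3b (0.46) and Sqstm1 (0.32). Among all genes 20.6% were lower and 20.9% higher in AGPS KO cells, and 21.2% lower and 21.3% higher in parental cells, which holds for all 4 lists. Atf3, a stress-induced repressor, had log2 fold changes of -2.17 in AGPS KO cells and -2.40 in parental cells. Cth, of cysteine synthesis, had -2.40 in AGPS KO cells and -2.05 in parental cells. Slc7a11, the cystine importer, had -1.85 in AGPS KO cells and -2.08 in parental cells. The untreated parental libraries lay far apart for Cth (7.85 and 25.1 CPM) and Slc7a11 (39.4 and 131 CPM). With TGF-β the parental libraries had 3.34 and 4.59 CPM for Cth and 21.0 and 19.2 CPM for Slc7a11. Of 12 cytosolic aminoacyl-tRNA synthetases 9 were lower and 1 (Tars) higher in AGPS KO cells, and 7 lower and 1 higher in parental cells, with Yars at -0.47 in AGPS KO cells and -0.53 in parental cells. Wars stood at -0.65 in AGPS KO cells.

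Of 33 other ER folding, transport and degradation genes 15 were higher and 6 lower with TGF-β in AGPS KO cells, and 12 higher and 4 lower in parental cells. The genes with the highest changes included Fkbp14, a prolyl isomerase of the ER, at 1.14 in AGPS KO cells and 0.94 in parental cells, and Sec24d, a coat protein of ER export, at 1.12 in AGPS KO cells and 0.74 in parental cells. Txndc5, a disulfide isomerase, rose by 0.99 in AGPS KO cells and 0.83 in parental cells. In parental cells 7 or 6 rather than 12 were higher when either treated library was left out. Of 12 eIF2 kinases, phosphatase subunits and stress sensors 4 were higher and 2 lower in AGPS KO cells, and 2 higher and 4 lower in parental cells. Nfe2l2, which encodes NRF2, fell in both, at -0.97 in AGPS KO cells and -1.32 in parental cells.

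Between the lines, 7 of the 21 other ATF4 targets and regulators were lower in AGPS KO cells with TGF-β and 7 without it. In these comparisons 0 and 1 were higher. Of all genes 11.1% were lower and 6.82% higher with TGF-β, and 8.94% lower and 4.72% higher without it. Slc7a5, an amino acid importer, stood at -1.33 with TGF-β and -1.53 without. Fgf21, a stress hormone with few counts here, stood at -1.36 with TGF-β and -2.66 without. Gdf15, a secreted stress cytokine, was at -1.18 with TGF-β, and Chac1, which degrades glutathione, at -1.44 untreated. Of the tRNA synthetases 3 were lower with TGF-β and 2 without it, Aars at -0.87 with TGF-β and -0.85 without it. Of the sensor list 1 was higher and 2 lower with TGF-β and 0 higher and 3 lower without it, with Mbtps1, the site-1 protease that cleaves ATF6, at -0.71 with TGF-β and -1.02 without it. Of the other ER genes 1 was higher and 1 lower with TGF-β, and 2 higher and 2 lower without it. The TGF-β change differed between the lines for Ddit4 (1.40), Atf5 (-1.24) and Creb3l2 (0.71), with adjusted p of 0.023, 0.00505 and 0.0253. Slc7a5, Gdf15, Aars and Mbtps1 lie on chromosome 8, whose tested genes had a median of -0.47 with TGF-β and -0.46 untreated, and the part of position in their values was not tested. Several of the smaller counts of these lists changed when 1 library was left out.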

How the data were processed

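RNA from 8 libraries was analysed from gene counts. The submitters' processing notes name STAR 2.7.1a, featureCounts 1.6.2 and the mouse builds GRCm38 and mm10. The authors deposited raw counts for 55450 gene identifiers, 1 file per library. Neither the strandedness of counting nor the annotation release is given in the labels or notes, so reads of overlapping genes on opposite strands cannot be told apart. A deposited table of normalized values, for which the notes name DESeq2 1.26.0, was not used.

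Every identifier received a symbol from a gene name table. The 35 members, their roles and the wider lists were chosen with earlier results of these data known. The filterByExpr filter, run by group with a minimum count of 10, kept 14641 genes, all 35 members among them. These genes held 99.9% of the counts. In R 4.3.3 the quasi-likelihood model of edgeR 4.0.16, with TMM scaling and 1 mean per group, covered all 8 libraries and left 4 residual degrees of freedom. P-values were adjusted by Benjamini-Hochberg over all genes tested in each comparison, and an adjusted p under 0.05 was called. Standard errors came from the F statistic. Levels are CPM after TMM. The tests were checked on simulated counts with the same spread for every gene. That check does not measure error rates for genes whose libraries lay far apart. Libraries held 17007268 to 21311831 counts, and the lowest count of a member in a library was 27.

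Values in every library are given for the 3 called members of each role with the largest absolute log2 fold change. Cebpb, Hspa5, Pdia3, Asns and Atf4 were added after their values were seen. Up to 3 called genes of each wider list are named per comparison, from those with an average log2 CPM of at least 1. The 5 other ATF4 targets and regulators that were higher with TGF-β in AGPS KO cells are named as well. Alternatives were DESeq2 size factors, upper quartile scaling, no count filter, DESeq2 1.42.0, only the 4 libraries compared, a replicate block and leaving out each library. Replicate numbers are shared between groups, but the labels do not say what a number stands for. For that reason the numbers were not taken to pair the libraries. The deviations of same-numbered libraries from their group means correlated at 0.0218 to 0.308 over the 6 pairs of groups. The highest value was between untreated AGPS KO and untreated parental cells, and these values do not exclude a pairing. Positions, exon lengths and shared 50-base stretches came from GENCODE M21 (GRCm38). Promoter windows came from RefSeq (GRCm38.p6) and were searched with Python 3.11.15.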

Additional observations from a re-analysis of the deposited data

Results flagged for a closer look

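Cebpb changed unequally with TGF-β in the lines. The log2 change in AGPS KO cells minus that in parental cells was 0.735, with an adjusted p of 0.043 by edgeR over all 14641 genes. The value ran from 0.60 to 0.89 over 13 alternatives and kept its sign in each, and in 6 of them, each leaving out 1 library, it did not pass.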

How the results depend on the processing

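No alternative turned the direction of a called member. Leaving out 1 library at a time gave 9 to 12 members higher and 6 to 16 lower with TGF-β in AGPS KO cells, and 4 to 8 higher and 9 to 17 lower in parental cells. For AGPS KO against parental cells it gave 0 to 3 higher and 1 to 4 lower with TGF-β, and 0 to 1 higher and 2 to 10 lower untreated. For the difference of the TGF-β changes it gave 0 to 3 higher and 0 to 1 lower. Only the 4 libraries compared gave 2 members lower in untreated AGPS KO cells. The difference of changes had 2 higher and 1 lower with DESeq2, 3 higher and 1 lower with no count filter, and 1 lower with upper quartile scaling. With the replicate block it had 3 higher and 1 lower, and the block gave 1 member higher in untreated AGPS KO cells. A fit without 1 library has fewer residual degrees of freedom, so a call can end while its value moves little. Ddit3 with TGF-β on both sides ran from -0.84 to -0.64 over the alternatives, against -0.75 in the fit reported. The share of all genes called in each setting is not set beside these counts. The cause of these shifts was not tested. Herpud1 kept its call in all 4 comparisons between groups under every alternative run.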
